A study of Bos taurus with 30 samples.

Results

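Motile cilia and intraflagellar transport genes were picked out of the endometrial transcriptome by symbol, and their levels were followed over 6 groups of postpartum cows. The genes taken were those whose symbol starts with IFT, BBS, CFAP, DNAH, DNAI, DNAL, RSPH or TEKT and goes on with a digit, together with 16 genes named singly. Of 10476 genes in the deposited tables, 39 met this rule, and none of the 39 has a DNAI, RSPH or TEKT symbol. Of the genes named singly, DYNC2H1, DNALI1 and WDR35 have no entry in the tables used and were not analysed here. The 39 genes were sorted by known role into 9 motile-only genes (AK7, CCDC39, CFAP126, DNAH1, DNAH11, DNAH17, DNAH7, DRC1 and LRRC6), 24 general cilia genes, whose products build or serve cilia of every kind, and 6 genes of mixed or uncertain role (CCDC190, CFAP20, CFAP36, CFAP97, DNAL1 and TPPP3).

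RNA-seq was performed on endometrial cytobrush samples of Holstein-Friesian cows of 1 commercial dairy farm, taken at 7 days postpartum (DPP). Groups follow the diagnosis made at 21 DPP. Of 30 cows deposited, 27 form the study set: 10 that remained healthy, 9 that developed cytological endometritis (CYTO) and 8 that developed purulent vaginal discharge (PVD). Each library is 1 cow, and cows are named by their label, in which CYTO cows are Sub-clinical and PVD cows Clinical. The groups were split further at 18% polymorphonuclear neutrophils (PMN), counted by cytology on a separate brush. Healthy cows with low PMN at 7 DPP are LLHealthy (5 cows) and those with high PMN HLHealthy (5 cows). CYTO cows with low PMN at 7 DPP are LHCYTO (5 cows) and those with high PMN HHCYTO (4 cows). All PVD cows had high PMN at 7 DPP and are HLPVD (4 cows) or HHCYTO+PVD (4 cows), the latter with cytological endometritis as well at 21 DPP.

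Cilia are built around microtubule doublets that extend from a basal body. Intraflagellar transport (IFT) carries material along the doublets, with kinesin-2 as the outward motor, dynein-2 as the return motor, and the IFT-A, IFT-B and BBSome complexes as adaptors for cargo. Motile cilia of the endometrium stand on multiciliated cells of the luminal and glandular epithelium and carry, in addition, axonemal dynein arms and the structures that place and regulate them, which primary cilia of other cells lack.

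The 27 libraries held 11922966 to 39202083 counted reads (median 23107772), and levels are given as CPM (counted reads scaled to an equal total in every library), so that 1 read was worth 0.0255 to 0.0839 CPM. Levels of single genes were compared between groups for the same gene, and differences between lists of genes were read only for how they varied between groups. The median gene stood at 15.1 CPM in HHCYTO+PVD cow Clinical_1239 and at 24.8 to 35.8 CPM in the other 26 cows, and that cow had the lowest level of 6 of the 9 motile-only and 21 of the 24 general genes. The brush takes up all cells of the surface, and fewer ciliated cells and less RNA per ciliated cell cannot be told apart in these bulk samples.

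The mean of the motile-only genes was high in some low PMN cows and low in every high PMN cow, while DNAH17, 1 of the 9, went the other way. The mean level of the 9 genes per cow, on the log2(CPM + 1) scale, was 4.0 ± 1.38 (SD, n = 5) in LLHealthy, 3.14 ± 0.99 (SD, n = 5) in LHCYTO, 1.99 ± 0.32 (SD, n = 5) in HLHealthy, 2.05 ± 0.24 (SD, n = 4) in HHCYTO, 1.90 ± 0.23 (SD, n = 4) in HLPVD and 1.63 ± 0.18 (SD, n = 4) in HHCYTO+PVD. The 10 low PMN cows ranged from 2.19 to 5.54 and the 17 high PMN cows from 1.51 to 2.36, so the ranges overlapped only at the bottom of the low PMN cows.

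General cilia genes were also highest in the low PMN groups, over a narrower range. Their mean per cow was 5.07 ± 0.36 (SD, n = 5) in LLHealthy, 4.95 ± 0.15 (SD, n = 5) in LHCYTO, 4.51 ± 0.41 (SD, n = 5) in HLHealthy, 4.33 ± 0.15 (SD, n = 4) in HHCYTO, 4.27 ± 0.34 (SD, n = 4) in HLPVD and 3.79 ± 0.93 (SD, n = 4) in HHCYTO+PVD. The motile-only mean less the general mean in the same cow was -1.07 ± 1.11 in LLHealthy, -1.81 ± 0.86 in LHCYTO, -2.52 ± 0.16 in HLHealthy, -2.27 ± 0.36 in HHCYTO, -2.38 ± 0.17 in HLPVD and -2.16 ± 0.84 in HHCYTO+PVD. The means of this difference were lower in the 4 high PMN groups than in the low PMN groups, single cows of both classes overlapped, and its spread was widest in LLHealthy. A mean over chosen genes was given no test.

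**Figure D1:**
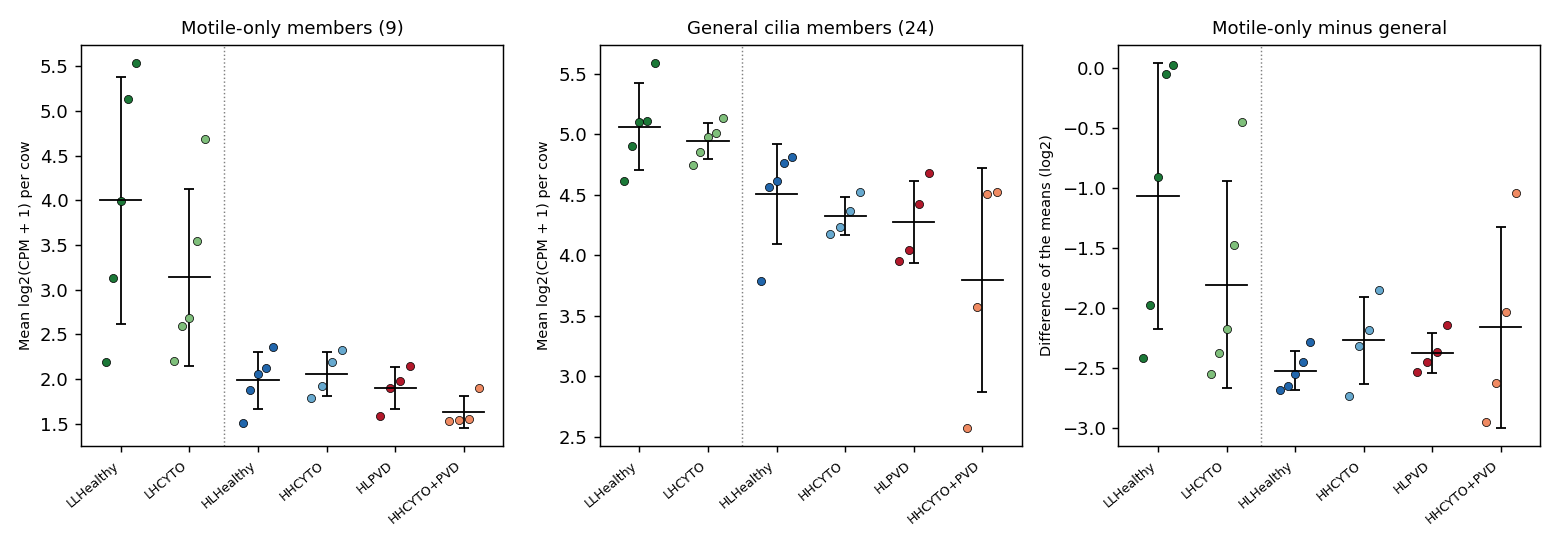
Mean log2(CPM + 1) per cow of the 9 motile-only genes, of the 24 general cilia genes, and the difference of the means, by group (points: cows, bars: mean ± SD). The motile-only means of low PMN cows spread from 2.19 to 5.54, while those of high PMN cows stay between 1.51 and 2.36.

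DRC1, a subunit of the nexin-dynein regulatory complex that ties neighbouring doublets together, stood at 2.33, 10.7, 50.3, 110 and 146 CPM in the 5 LLHealthy cows and at 0.959, 1.85, 2.30, 12 and 81.4 CPM in the 5 LHCYTO cows. In HLHealthy it stood at 0.809, 1.19, 1.53, 1.61 and 3.19 CPM and in HHCYTO at 0.595, 0.798, 0.884 and 1.13 CPM. Thus 6 of the 10 low PMN cows were above every high PMN cow that was healthy or CYTO, and the remaining low PMN cows overlapped with them. In HLPVD it stood at 0.745, 0.918, 0.931 and 1.66 CPM and in HHCYTO+PVD at 0.130, 0.592, 0.635 and 1.02 CPM, which rests on 3 to 61 reads a cow.

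CCDC39, the ruler protein that sets the spacing of dynein arms and radial spokes, was close to the limit of counting in high PMN cows. It stood at 0.788, 11.3, 11.5, 46.1 and 61.1 CPM in LLHealthy and at 0.654, 1.16, 2.88, 9.32 and 19.5 CPM in LHCYTO. In HLHealthy it stood at 0.0672, 0.255, 0.596, 0.911 and 1.09 CPM, and in HHCYTO at 0.197, 0.282, 0.836 and 0.925 CPM. Here 8 of the 10 low PMN cows lay above all 9 high PMN cows of these groups. PVD cows had 0 to 29 reads of CCDC39. The 0 is cow Clinical_1239, where 3 reads would have given 0.130 CPM, an upper limit that covers counting error only.

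AK7, an adenylate kinase of motile cilia, stood at 3.12, 9.45, 24, 76.1 and 98.8 CPM in LLHealthy and at 4.40, 4.80, 5.85, 12 and 39.2 CPM in LHCYTO. Its level was 1.34, 2.60, 3.47, 4.75 and 5.79 CPM in HLHealthy and 1.60, 1.83, 2.26 and 2.97 CPM in HHCYTO. All 8 PVD cows, at 0.303 to 3.01 CPM, were below all 10 low PMN cows. LRRC6 is an assembly factor that prepares dynein arms in the cytoplasm. It was at 1.99, 15.4, 17.5, 32.6 and 46.5 CPM in LLHealthy, at 5.93, 6.39, 7.05, 8.29 and 27.4 CPM in LHCYTO, at 0.672, 2.68, 4.46, 4.60 and 5.70 CPM in HLHealthy and at 2.20, 2.21, 2.31 and 3.01 CPM in HHCYTO. With the exception of LLHealthy cow Healthy_1890, the low PMN cows (9 of 10) lay above all 9 high PMN cows for LRRC6, and 1 of the 9 high PMN cows lay below all 10 low PMN cows.

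The dynein heavy chains DNAH7, of the inner arm, and DNAH11, of the outer arm, ran alongside. DNAH7 stood at 7.54, 11.9, 52.55, 101.2 and 118 CPM in LLHealthy, 8.40, 10.2, 18.2, 21.6 and 75 CPM in LHCYTO, 2.82, 4.46, 5.02, 8.12 and 12 CPM in HLHealthy and 2.51, 3.29, 8.46 and 10.8 CPM in HHCYTO. DNAH11 stood at 2.63, 4.28, 36.4, 63.0 and 73.4 CPM in LLHealthy, 0.915, 2.88, 4.03, 11.1 and 37.2 CPM in LHCYTO, 0.575, 0.806, 1.11, 1.35 and 3.77 CPM in HLHealthy and 0.987, 1.52, 2.70 and 2.84 CPM in HHCYTO. For both genes the lowest low PMN cows lay among the high PMN cows. CFAP126 (Flattop), which helps to position basal bodies, ranged from 6.34 to 55.0 CPM in low PMN cows and from 4.63 to 8.92 CPM in high PMN healthy and CYTO cows. DNAH1, another inner-arm heavy chain, ranged from 1.94 to 33.3 CPM in LLHealthy and from 2.08 to 11.1 CPM in HLHealthy, with wide overlap. It ranged from 10.03 to 13.9 CPM in LHCYTO and from 2.73 to 7.33 CPM in HHCYTO, without overlap between these groups.

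The spread among low PMN cows came from the same animals for gene after gene. Cows Healthy_2224 and Healthy_2570 (LLHealthy) and Sub-clinical_1183 (LHCYTO) were the highest 3 of 27 for all 7 motile-only genes other than DNAH1 and DNAH17. LLHealthy cow Healthy_1890 had a motile-only mean of 2.19, below the 2.36 of the highest high PMN cow. In that cow the summed level of 12 neutrophil markers was 1367 CPM, the highest among the 10 low PMN cows, and the summed level of 9 glandular secretion markers was 288 CPM against 56200 CPM in the median LLHealthy cow. The part of these cell markers in the level of the cilia genes was not tested.

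**Figure D2:**
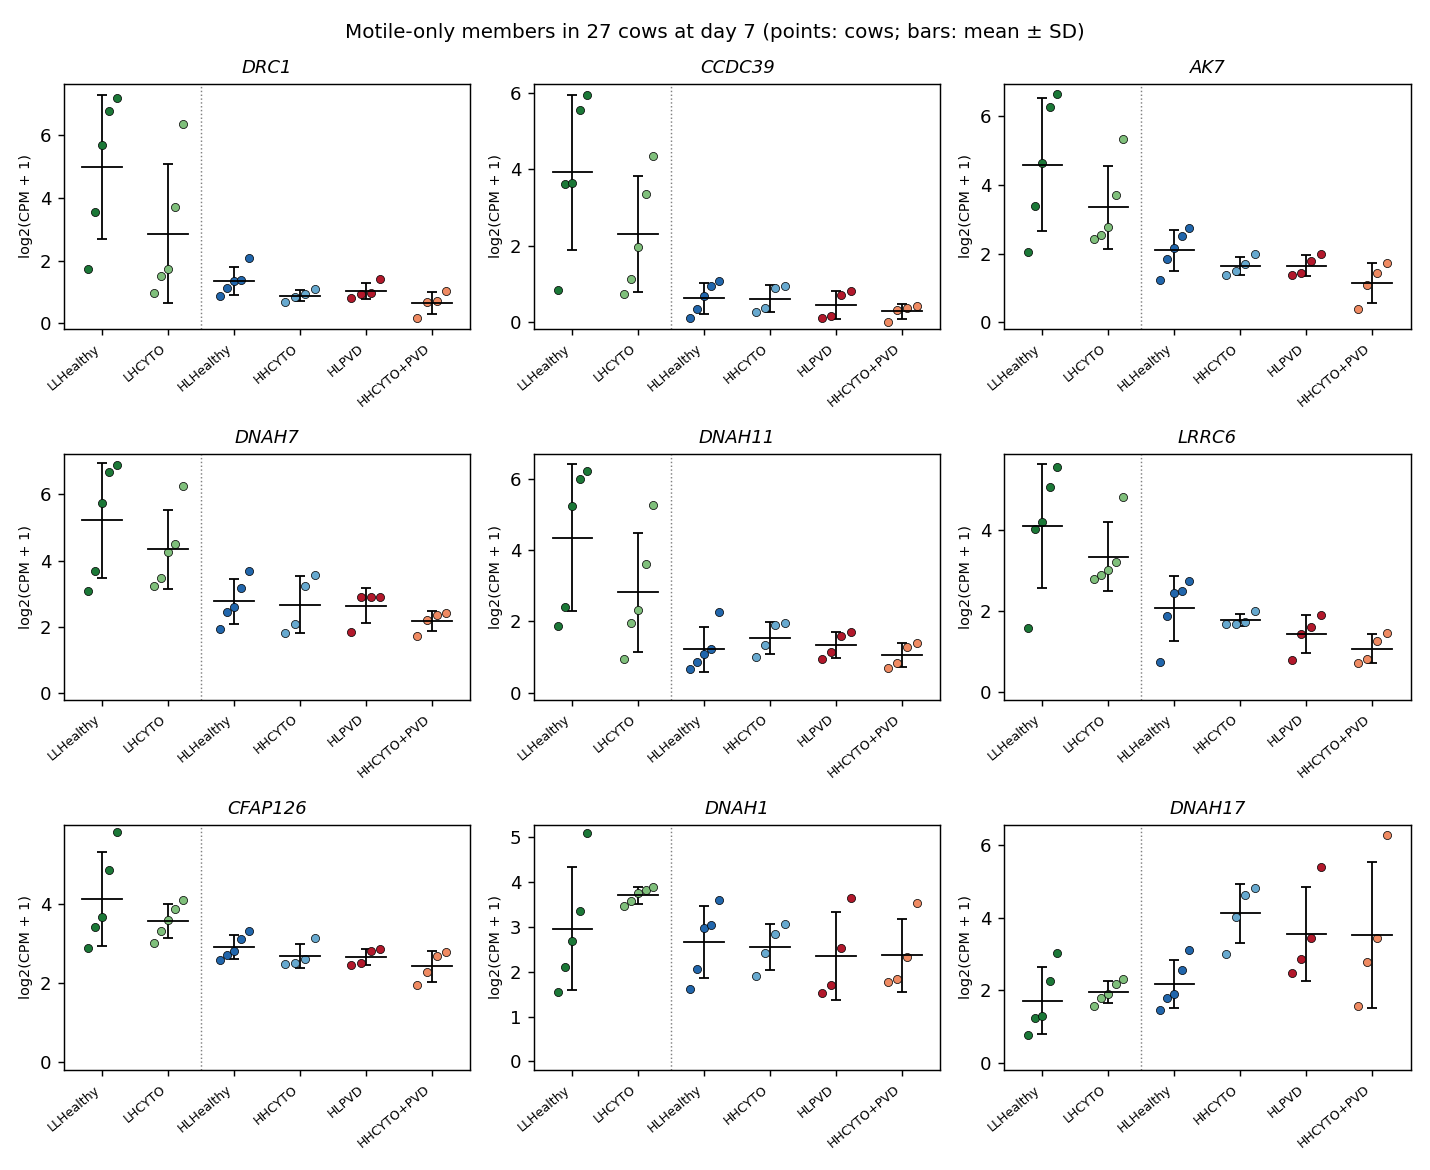
Levels of the 9 motile-only genes as log2(CPM + 1), by group (points: cows, bars: mean ± SD). For 7 genes the points of the LLHealthy and LHCYTO cows reach far above those of the 4 high PMN groups, and DNAH17 is highest in high PMN cows. DNAH1 overlaps widely between the healthy groups and not between LHCYTO and HHCYTO.

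High and low PMN cows were compared with the outcome held in the model, over 9 high PMN cows (HLHealthy and HHCYTO) and 10 low PMN cows (LLHealthy and LHCYTO). By limma on log2(CPM + 1), with Benjamini-Hochberg adjustment over 10462 genes and a gene called at an adjusted p under 0.05 and a log2 fold change beyond 1, 13 of the 39 genes were called lower in high PMN cows and 1 was called higher. Of all genes tested, 3.69% were called lower and 8.77% higher, 12.5% in all. The 13 genes were 7 motile-only (DRC1, CCDC39, DNAH11, AK7, DNAH7, LRRC6 and CFAP126), 5 general (DYNC2LI1, IFT57, IFT81, IFT74 and IFT172) and CCDC190. The median log2 fold change was -2.08 over the motile-only genes, -0.51 over the general genes and -0.72 over the mixed genes, beside 0.02 over all genes. With edgeR on the reads behind the CPM, 554 of 1159 called genes were lower in place of 386 of 1303, and 17 of the 39 genes were called. DESeq2 called 626 of 1462 genes lower, and likewise 17 of the 39.

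Among the motile-only genes, DRC1 fell by 2.85 on the log2 scale (SE 0.73, adjusted p = 0.0124 by limma) and CCDC39 fell by 2.55 (SE 0.61, adjusted p = 0.0098 by limma). CCDC39 passed the filter of 1 CPM in 5 libraries through the low PMN cows, since only 1 of the 9 high PMN cows reached 1 CPM, and without it the motile-only median was -1.95. LRRC6 fell by 1.82 (SE 0.43, adjusted p = 0.0096 by limma) and AK7 fell by 2.12 (SE 0.53, adjusted p = 0.0112 by limma). The dynein heavy chains DNAH11 and DNAH7 had log2 fold changes of -2.26 and -2.08, and CFAP126 of -1.07 (adjusted p = 0.0173 by limma). CFAP126 was no longer called without LLHealthy cow Healthy_2224 or cow Healthy_2570, at -0.85 and -0.96. DNAH1 had -0.70 (SE 0.38, adjusted p = 0.165 by limma) and did not pass, while DESeq2 called it at -1.02 (adjusted p = 0.0486).

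Within the 9 CYTO cows alone, a comparison chosen after seeing the data, 10 of the 39 genes were called (3 motile-only, 5 general and 2 mixed), beside 8.72% of all genes. There LRRC6 (-1.57) and DNAH1 (-1.15) were called lower and DNAH17 (2.17) higher among the motile-only genes, whose median was -1.57, and the general median was -0.70. Of the 7 motile-only genes called lower over both outcomes, LRRC6 was called within the CYTO cows and the other 6 were not. DRC1, CCDC39 and DNAH11 had -1.97, -1.69 and -1.28 there (adjusted p = 0.173, 0.125 and 0.247 by limma). CCDC39 passed the filter through LHCYTO cows, of which 4 of 5 reached 1 CPM, as did 0 of 4 HHCYTO cows, so its direction was set by the filter. DRC1 also passed only with LHCYTO cows, as it stood at 0.595, 0.798, 0.884 and 1.13 CPM in HHCYTO. The filter asked for 1 CPM in 4 cows here. DNAH11, at 0.987 CPM in its lowest HHCYTO cow, and CCDC190, at 0.752 CPM in its lowest, likewise passed only with LHCYTO cows. CCDC39, DRC1 and DNAH11 are in the motile-only median of -1.57, and CCDC190 is among the mixed genes called. AK7, DNAH7 and CFAP126 had -1.71, -1.67 and -0.89 (adjusted p = 0.0551, 0.0778 and 0.0372 by limma).

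Fewer of the general cilia genes passed the test. Of 24, 22 had a lower mean in high PMN cows, beside 5092 of all 10462 genes. An adjusted p under 0.05 in this direction was reached by 10 of the 24, beside 15.8% of all genes, and 5 of the 10 had a log2 fold change beyond 1 as well. The 10 comprise parts of dynein-2, kinesin-2, IFT-B and the BBSome, and none of the 4 IFT-A genes (IFT43, IFT122, IFT140 and WDR19) is among them. This is a split at a threshold, and the complexes were not compared with each other. DESeq2 called IFT122, but no other IFT-A gene, lower in PVD against healthy cows (-1.16, adjusted p = 0.0353). It did the same in HLHealthy against LLHealthy (-1.34, adjusted p = 0.0370). DYNC2LI1, the light intermediate chain of dynein-2, stood at 9.31, 29.6, 49.0, 50.6 and 76.5 CPM in LLHealthy, 17.2, 17.8, 19.1, 19.7 and 37.7 CPM in LHCYTO, 4.10, 9.26, 10.2, 12.7 and 24.5 CPM in HLHealthy and 6.98, 8.59, 8.70 and 10.8 CPM in HHCYTO. Its log2 fold change was -1.44 (SE 0.33, adjusted p = 0.0087 by limma), with 5 of 10 low PMN cows above all 9 high PMN cows.

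Of the IFT-B subunits, which serve outward transport, IFT57 stood at 24.4, 57.2, 73.6, 99.8 and 122 CPM in LLHealthy, 33.0, 34.3, 37.8, 43.2 and 82.2 CPM in LHCYTO, 13.4, 19.6, 25.2, 27.1 and 42.4 CPM in HLHealthy and 16.4, 19.2, 22.8 and 24.5 CPM in HHCYTO. IFT57 fell by 1.25 on the log2 scale (SE 0.27, adjusted p = 0.0072 by limma). All 8 PVD cows, at 6.23 to 24.2 CPM of IFT57, lay below all 10 low PMN cows. IFT74, a partner of IFT81 in binding tubulin, stood at 17.6, 32.55, 36.2, 37.45 and 44.6 CPM in LLHealthy, 21.4, 29.4, 32.49, 34.7 and 37.6 CPM in LHCYTO, 7.46, 14.6, 15.2, 19 and 32.3 CPM in HLHealthy and 7.73, 11.5, 14.48 and 14.7 CPM in HHCYTO. The log2 fold change was -1.13 for IFT74 and -1.16 for IFT81 (adjusted p = 0.0060 and 0.0080 by limma). The LHCYTO and LLHealthy cows overlapped over most of their range of IFT74.

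IFT172 had a log2 fold change of -1.03 (SE 0.20, adjusted p = 0.0059 by limma) and was just past the fold that was called, and IFT46 had -0.96 (adjusted p = 0.0071 by limma) and was just short of it. Leaving out single cows moved both across it: IFT172 stood at -0.95, -0.93, -0.99 and -0.95 without cows Sub-clinical_1183, Healthy_1570, Sub-clinical_2184 and Healthy_2224, and IFT46 at -1.01, -1.07, -1.02 and -1.01 without cows Healthy_1831, Healthy_1890, Sub-clinical_1944 and Sub-clinical_2421. BBS4, a subunit of the BBSome, had -0.90 (adjusted p = 0.0070 by limma) and -1.02 without cow Healthy_1890. IFT88 had -0.66, KIF3B, a motor subunit of kinesin-2, -0.50, and IFT22 -0.34 (adjusted p = 0.0145, 0.0142 and 0.0482 by limma). For IFT22 the adjusted p reached 0.0979 when a cow was left out.

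Other subunits of the same complexes did not pass the test. IFT20, an IFT-B subunit also found at the Golgi, had 37.2, 42.5, 46.9, 58.2 and 62.5 CPM in LLHealthy, 39.8, 40.4, 43.8, 46.8 and 47.2 CPM in LHCYTO, 37.7, 43.8, 46.5, 48.0 and 50.9 CPM in HLHealthy and 39.1, 46.7, 49.1 and 55.8 CPM in HHCYTO. Its log2 fold change was 0.0015 (SE 0.11, adjusted p = 0.992 by limma), and its sign turned with the scaling. IFT52 had -0.26, IFT43, of IFT-A, -0.22, and WDR34, an intermediate chain of dynein-2, -0.22 (adjusted p = 0.329, 0.505 and 0.649 by limma), and WDR34 stood at 0.27 within the CYTO cows. The 10 general genes not named by rule ran from -0.72 to 0.28, with the lowest adjusted p at 0.0512 by limma.

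The genes of mixed role split. CCDC190, a little-studied gene, stood at 1.99, 4.196, 35.3, 74.1 and 82.3 CPM in LLHealthy, 7.52, 7.56, 11.2, 11.7 and 32.0 CPM in LHCYTO, 0.336, 0.809, 1.95, 5.20 and 6.18 CPM in HLHealthy and 0.752, 1.06, 1.28 and 1.44 CPM in HHCYTO. It fell by 2.66 on the log2 scale (SE 0.57, adjusted p = 0.0072 by limma), in the range of the motile-only genes. DNAL1, a light chain of the outer dynein arm, had -0.90 (SE 0.21), CFAP97 -0.57 and CFAP36 -0.54 (adjusted p = 0.0086, 0.0096 and 0.0240 by limma). CFAP20, a protein of the inner junction of the doublets, had -0.24 and TPPP3, which bundles microtubules, -0.87 (adjusted p = 0.150 and 0.295 by limma).

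**Figure D3:**
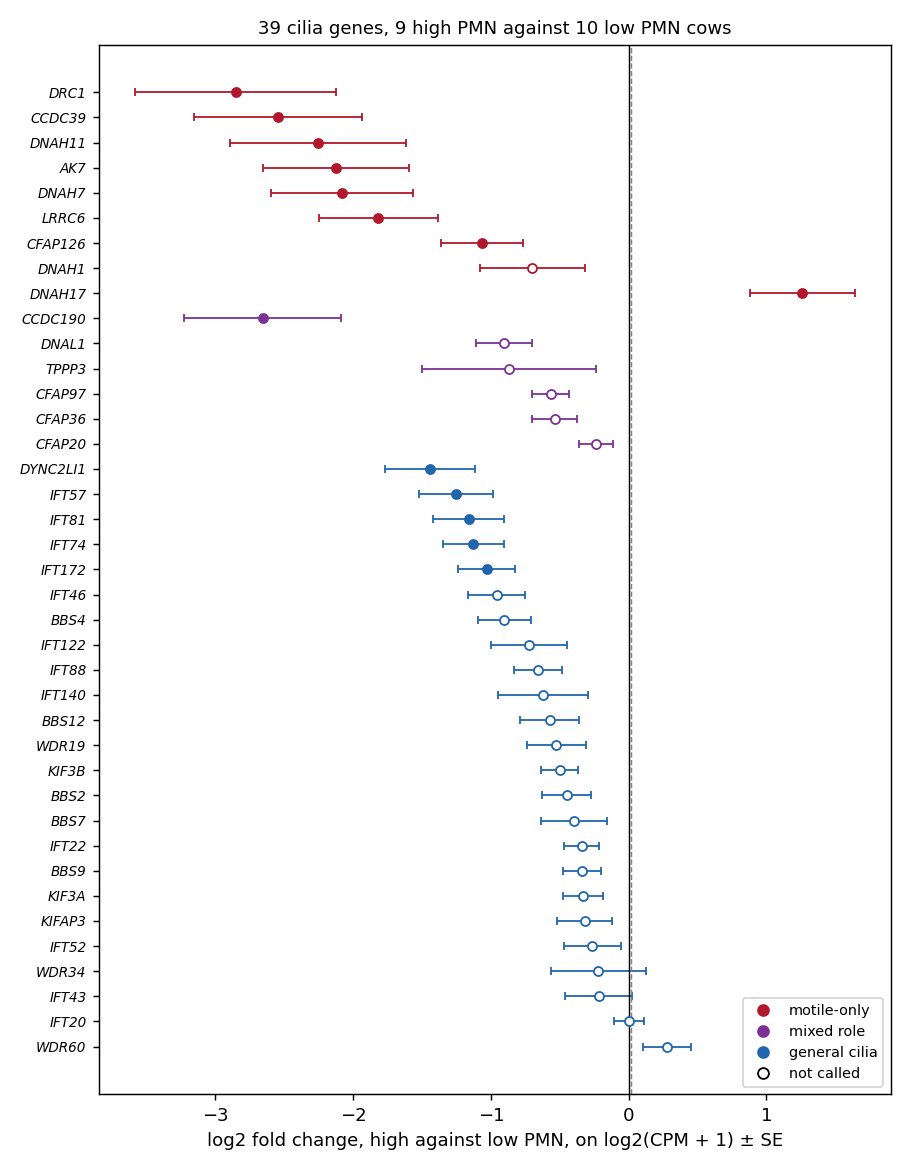
Log2 fold change of the 39 genes in 9 high PMN against 10 low PMN cows, on log2(CPM + 1), with the SE as bars, by class. The motile-only genes lie to the left at a median of -2.08 and the general genes at a median of -0.51, with DNAH17 alone at 1.26 on the right among the motile-only genes.

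DNAH17 moved against its class. This outer-arm dynein heavy chain is known in humans from the sperm flagellum. It stood at 0.697, 1.37, 1.44, 3.79 and 7.24 CPM in LLHealthy, 1.96, 2.47, 2.78, 3.53 and 3.97 CPM in LHCYTO, 1.76, 2.49, 2.76, 4.94 and 7.73 CPM in HLHealthy and 7.10, 15.2, 23.9 and 27.2 CPM in HHCYTO. In HLPVD it stood at 4.59, 6.31, 9.91 and 41.0 CPM and in HHCYTO+PVD at 1.99, 5.91, 9.90 and 77.3 CPM. High levels were thus seen in the HHCYTO group and in single PVD cows, and the healthy cows of both PMN classes overlapped.

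DNAH17 rose by 1.26 on the log2 scale in high PMN cows (SE 0.38, adjusted p = 0.0220 by limma). With the PVD cows in the fit as a further outcome, a setting chosen after seeing the data, its adjusted p was 0.0636 by limma. The log2 fold change of DNAH17 was 0.45 within the healthy cows and 2.17 within the CYTO cows. In HHCYTO against HLHealthy the log2 fold change was 1.95 (SE 0.45, adjusted p = 0.161 by limma), and no cilia gene was called there by limma beside 0.412% of all genes. DESeq2 gave DNAH17 an adjusted p of 0.0057 in that comparison, and limma without HLHealthy cow Healthy_1570 gave 2.18 with an adjusted p of 0.0419. The difference of the PMN effect between CYTO and healthy cows was 1.71 (adjusted p = 0.272 by limma), the smallest adjusted p of any of the 39 genes in that test, in which 0.0764% of all genes were called.

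The cows with the most DNAH17 also had high neutrophil markers. The summed level of 12 neutrophil genes was 27358 CPM in cow Clinical_1239, which had 77.3 CPM of DNAH17, and 7099 CPM in HLPVD cow Clinical_2683, which had 41.0 CPM. The sum ran from 4664 to 7475 CPM in HHCYTO, from 567 to 6835 CPM in HLHealthy and from 737 to 1023 CPM in LHCYTO. HLHealthy cow Healthy_1570 had 6835 CPM of these markers and 7.73 CPM of DNAH17, and HHCYTO+PVD cow Clinical_2161 had 9201 CPM and 5.91 CPM. The part of neutrophils in the level of DNAH17 was not tested.

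Cows which developed PVD were compared with all healthy cows. The PVD cows all had high PMN while 5 of the 10 healthy cows had low PMN, so outcome and PMN cannot be told apart in this comparison, which also shares its healthy cows with the comparison of PMN classes. No gene was called by limma (0% of 10454 genes), and none by edgeR. At p under 0.05 without adjustment, 2223 of all genes passed. Of the 39 genes, 26 passed it in the lower direction, beside 13.7% of all genes, and DNAH17 in the higher direction, with a lowest adjusted p of 0.195 by limma. The 26 comprised 7 motile-only, 14 general and 5 mixed genes. The median log2 fold change was -1.59 over the motile-only genes, -0.61 over the general genes, -0.80 over the mixed genes and -0.13 over all genes. The size of the motile-only median depended on the tool, and it was -3.19 by edgeR and -3.16 by DESeq2. DESeq2 called 16 of the 39 genes, 8 motile-only, 6 general and 2 mixed, beside 6.70% of all genes.

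By class, DRC1, AK7, CCDC39 and LRRC6 had log2 fold changes of -2.34, -1.94, -1.92 and -1.83 by limma in PVD against healthy cows. DESeq2 gave -5.40, -3.78, -5.66 and -3.16 for the same genes. CCDC39 passed the filter through the healthy cows, of which 5 of 10 reached 1 CPM, as did 0 of 8 PVD cows, so that its direction was set by the filter, and it is among the 26 genes and the DESeq2 calls. Without it the motile-only median was -1.58. DRC1 and CCDC190 also passed the filter only with the help of healthy cows, as fewer than 5 PVD cows reached 1 CPM of either gene. Both are likewise among the 26 genes, the DESeq2 calls and the medians of their classes. In the same comparison DYNC2LI1, IFT81 and IFT74 had -1.45, -1.34 and -1.21. DNAH17 had 1.59 (SE 0.54). TPPP3, which was at 10.9, 12.2, 17.8, 54.5 and 337 CPM in LLHealthy and at 10.3, 25.7, 26.96, 34.5 and 70.7 CPM in HLHealthy, was at 1.86, 7.12, 16.6 and 34.4 CPM in HLPVD and at 6.06, 6.98, 8.01 and 13.9 CPM in HHCYTO+PVD. The PVD cows lay towards the bottom of the healthy range of TPPP3, with overlap, and its log2 fold change was -1.67 (SE 0.59).

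Set against the 5 HLHealthy cows, which had high PMN as the PVD cows did, the motile-only genes that were lower had smaller differences than against all healthy cows, and DNAH17 had the largest of the class. Over the 8 motile-only genes that passed the filter there, the median log2 fold change was -0.36, beside -0.46 over the 24 general genes and -0.21 over all genes. DNAH17 had 1.36 (SE 0.66), LRRC6 -0.82, AK7 -0.70, DRC1 -0.52, DNAH1 -0.30 and DNAH11 -0.02. The general genes were lower in 24 of 24, and scaled by trimmed means of M values (TMM), where the median of all genes was -0.006, the general median was -0.27 and the motile-only median -0.18. Without cow Clinical_1239 the general median was -0.25 and the motile-only median -0.27, and without HLHealthy cow Healthy_1570 they were -0.68 and -0.54. No gene was called by limma or edgeR (0% of 10430 genes), 244 genes had an unadjusted p under 0.05, and DESeq2 called 0.0192% of genes, with no cilia gene among them. Only TPPP3 of the 38 genes tested had an unadjusted p under 0.05, at a log2 fold change of -1.53 (SE 0.53, adjusted p = 0.806 by limma).

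**Figure D4:**
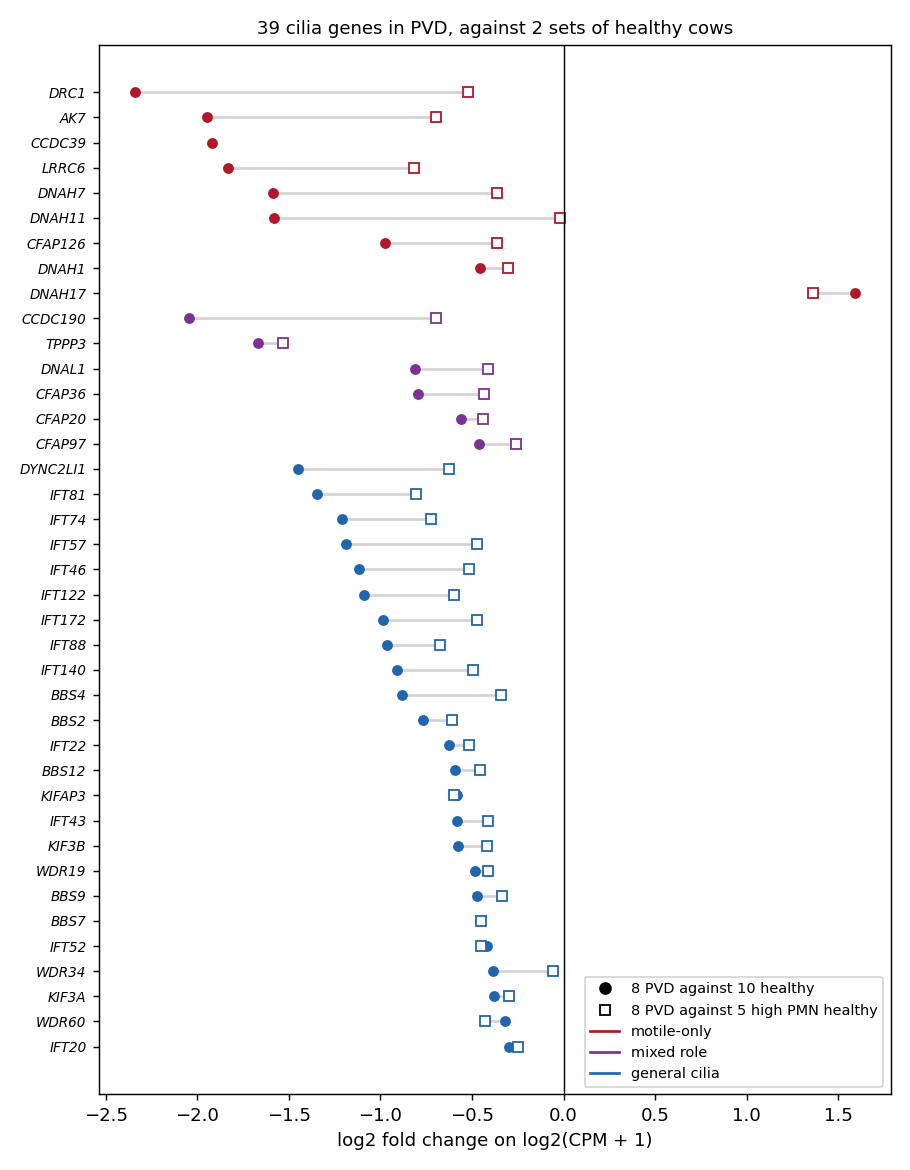
Log2 fold change on log2(CPM + 1) of the cilia genes in 8 PVD cows against all 10 healthy cows and against the 5 HLHealthy cows, which are among the 10. Most motile-only genes stand near -1.6 or lower against all healthy cows. Against the high PMN healthy cows they run from -0.82 to 1.36, at a median of -0.36. TPPP3 stays at -1.67 and -1.53 in these 2 comparisons.

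Within the healthy cows, HLHealthy was set against LLHealthy, and 8 of the 9 motile-only genes had a lower mean in HLHealthy. The log2 fold change was -3.64 for DRC1, -3.31 for CCDC39, -3.13 for DNAH11, -2.49 for AK7, -2.45 for DNAH7, -2.03 for LRRC6, -1.22 for CFAP126, -0.30 for DNAH1 and 0.45 for DNAH17. CCDC39 passed the filter through 4 LLHealthy cows and 1 HLHealthy cow, and it is among the 18 genes counted at an unadjusted p under 0.05 and the DESeq2 calls. Without CCDC39 the motile-only median was -2.24. DRC1, DNAH11, LRRC6 and CCDC190 also passed the filter only with the help of LLHealthy cows, as fewer than 5 HLHealthy cows reached 1 CPM of each. They are likewise among the 18 genes, the DESeq2 calls and the medians of their classes. DRC1, DNAH11 and LRRC6 are also in the median of -2.24. The medians were -2.45 over the motile-only genes, -0.32 over the general genes, -0.57 over the mixed genes and 0.14 over all genes. No gene was called by limma or edgeR (0% of 10424 genes), while 2691 genes had an unadjusted p under 0.05. Of the 39 genes, 18 passed that in the lower direction (7 motile-only, 8 general and 3 mixed), beside 9.15% of all genes, with a lowest adjusted p of 0.111 by limma.

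Calls among the healthy cows depended on cow Healthy_1890. Without that LLHealthy cow, limma called 2142 genes and 16 of the 39 cilia genes. In 1 limma fit over all 27 cows, 12 of the 39 genes were called (7 motile-only, 4 general and 1 mixed), beside 13.2% of all genes. DESeq2 called 16 (7 motile-only, 7 general and 2 mixed), beside 8.39%. CCDC39, DRC1, DNAH11, LRRC6 and CCDC190, which passed the filter only with the help of LLHealthy cows, are among the calls in each of these settings.

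No cilia gene passed the test in all CYTO against all healthy cows or in LHCYTO against LLHealthy. In the first of these, no gene was called by limma or edgeR (0% of 10462 genes), 216 genes had an unadjusted p under 0.05 with none of the 39 among them, and DESeq2 called 0.220% of genes and no cilia gene. The medians were -0.43 over the motile-only genes, -0.08 over the general genes and 0.08 over all genes. In LHCYTO against LLHealthy, the medians were -0.87 over the motile-only genes, -0.07 over the general genes and 0.20 over all genes. No gene was called there by limma or edgeR (0% of 10428 genes), 1415 had an unadjusted p under 0.05, and DESeq2 called 0.374% of genes with no cilia gene among them. CFAP36, at a log2 fold change of -0.62 (adjusted p = 0.365 by limma), was alone among the 39 genes in having an unadjusted p under 0.05.

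Other cilia genes, outside the symbols of the rule, were read from lists by function in high against low PMN cows. Of 131 further genes of motile cilia listed, 27 are in the tables. Of these 27, 13 were called lower, beside 3.69% of all genes, and none higher. The median change was -1.02, beside 0.02 over all genes. In HHCYTO against HLHealthy 26 of the 27 passed the filter, and the gene left out entered here only with the help of low PMN cows. Among the 13 were DYNLRB2 at -2.16, WDR78, an intermediate chain of an inner-arm dynein, at -2.07, and PIH1D2 at -1.997 (adjusted p = 0.0113, 0.0081 and 0.0076 by limma). Of 13 IFT and BBSome genes under other symbols, ARL6, the GTPase that recruits the BBSome, at -1.46, and LZTFL1, a regulator of the BBSome, at -1.41, were called lower (adjusted p = 0.0044 and 0.0060 by limma), and the median was -0.59. Of 39 genes of the transition zone and the primary cilium 3 were called lower, and of 19 genes of centrioles 1, with medians of -0.32 and -0.23. Both counts lie close to the share of all genes called lower, 3.69%, and are not read as a result about these lists.

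The regulators that switch on the multiciliated programme were mostly outside the tables used. FOXJ1 has no entry there. Of 16 regulators listed, 4 have one (RFX2, E2F4, E2F5 and TRRAP), none was called, and their median was -0.07. RFX2 had a log2 fold change of -0.89 (adjusted p = 0.104 by limma).

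Markers of epithelium, neutrophils and macrophages moved with the PMN classes too, in a comparison where 3.69% of all genes were called lower and 8.77% higher. Of 15 epithelial markers, 5 were called lower in high PMN cows (CDH1 at -1.74, KRT19 at -1.81, ESRP1, GRHL2 and OCLN) and none higher, with a median of -1.20. Their summed level ran from 667 to 6464 CPM in LLHealthy, 919 to 5298 CPM in LHCYTO, 517 to 1393 CPM in HLHealthy, 718 to 2652 CPM in HHCYTO, 681 to 1376 CPM in HLPVD and 464 to 1464 CPM in HHCYTO+PVD, and none of the 15 was at 0 in any cow. Of 9 glandular secretion markers 5 were called lower (median -3.33), while 11 of 12 neutrophil markers (median 2.32), 8 of 12 macrophage markers (median 2.72) and 4 of 13 stromal markers (median 2.05) were called higher. In HHCYTO against HLHealthy only 7 of the 9 glandular markers passed the filter. The rest entered the comparison of PMN classes only with the help of low PMN cows, and they are in its median. In the smaller lists, 2 of 5 lymphocyte, 3 of 6 endothelial and 2 of 7 smooth muscle markers were called higher. The lymphocyte markers split, and in HLHealthy against LLHealthy 3 of the 5 had a lower mean and 2 a higher mean (median -0.03). All 6 endothelial and all 7 smooth muscle markers had a higher mean there.

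The motile-only genes without DNAH17 were also read against the epithelial markers of the same cow. The mean of these 8 genes less the mean of the epithelial list, on log2(CPM + 1), was -2.46 ± 0.89 in LLHealthy, -2.82 ± 0.64 in LHCYTO, -3.35 ± 0.25 in HLHealthy, -3.96 ± 0.58 in HHCYTO, -3.72 ± 0.62 in HLPVD and -3.58 ± 0.88 in HHCYTO+PVD. The groups with low PMN had the smaller gap, and the SDs of neighbouring groups overlapped. Leaving out DNAH17, which rose in high PMN cows of these same data, adds to that contrast. Against the general genes, it moved the difference from -1.07 to -0.78 in LLHealthy and from -2.52 to -2.55 in HLHealthy. Against the 9 glandular secretion markers the order was another, with a difference of -4.32 ± 2.01 in LLHealthy, -1.78 ± 1.99 in LHCYTO, -1.23 ± 0.96 in HLHealthy, -2.04 ± 0.65 in HHCYTO, -1.87 ± 1.07 in HLPVD and -1.70 ± 1.41 in HHCYTO+PVD. The part of the other cell types in the levels of the cilia genes was not tested.

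**Figure D5:**
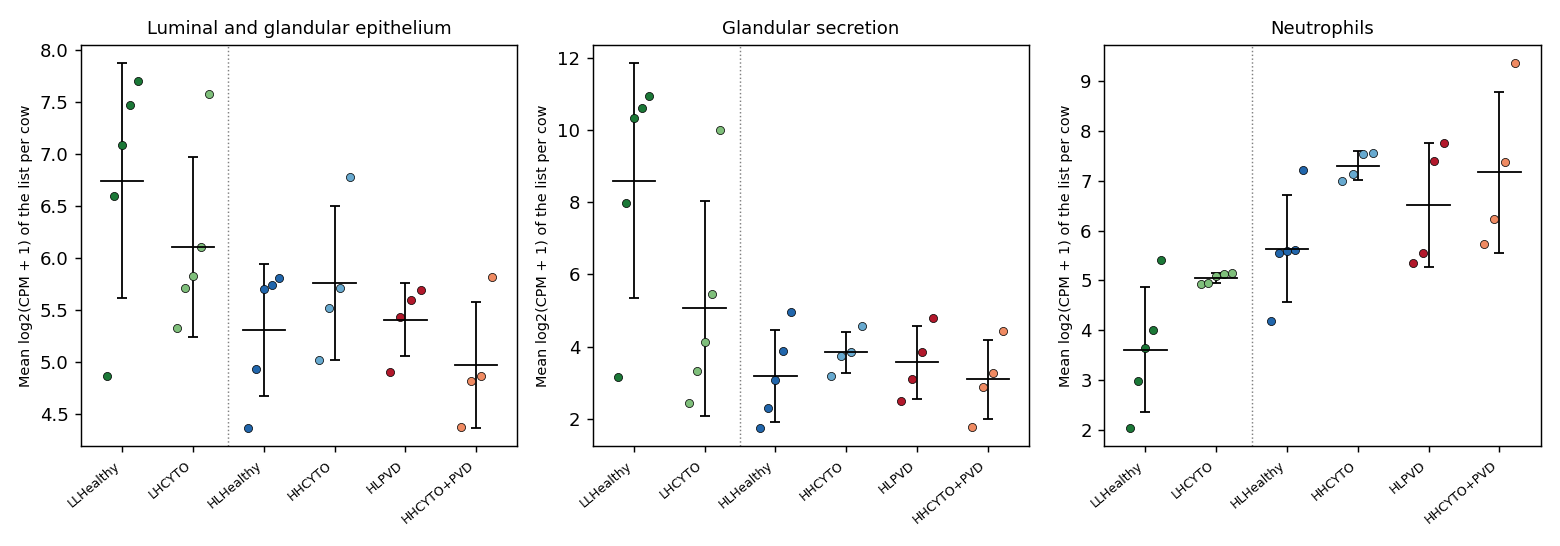
Mean log2(CPM + 1) per cow of lists of marker genes, by group (points: cows, bars: mean ± SD). Epithelial and glandular markers reach their highest levels in low PMN cows, where the sum of the epithelial markers reaches 6464 CPM, and neutrophil markers are highest in high PMN cows, where their sum reaches 27358 CPM.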

How the data were processed

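RNA was taken from endometrial cytobrushes, made into TruSeq Stranded mRNA libraries and sequenced as 100 bp single-end reads. The authors trimmed reads with BBDuk, aligned them to UMD3.1 with STAR, counted unique reads over protein-coding genes with featureCounts and deposited CPM. They describe a filter on low genes at 1 CPM in 5 libraries. The smallest total of any gene in the tables was 2087 reads over 30 cows, more than that filter asks for. A gene without an entry is thus not shown to lie under 1 CPM. Their processing notes name R 3.3.2 and edgeR 3.18.0, and the study names DESeq2. All 196409 values of up to 1000 reads were whole multiples of 1 read within 0.01 read, so the reads were recovered. Pools of libraries are not given per cow in the sources used here. The deposited tables also hold fold changes, p-values and FDR of the authors' own comparisons, which were not used.

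CPM were compared as log2(CPM + 1) with limma 3.58.1 (trended, moderated, two-sided) in R 4.3.3, on genes that reached 1 CPM in 5 or more of the cows entering a fit (in 4 or more for groups of 4), with Benjamini-Hochberg adjustment over all genes tested. Figures used matplotlib 3.10.9. Alternatives were a pseudocount of 0.1 CPM, no filter, TMM and RLE scaling, edgeR 4.0.16 and DESeq2 1.42.0 on the recovered reads, 1 fit over 27 cows, all 30 labelled cows, and leaving out each cow. Scripts were tested on simulated data.

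Groups of outcome follow the labels, and PMN classes follow the study's classification, which the headers of the tables repeat for 27 of 27 cows. The 3 further cows are outside the study set. The study reports leaving out 3 sequenced samples because the vaginal mucus scores of the cows raised the possibility of clinical metritis. The genes, their classes and the lists were chosen with earlier results of these data known. All motile-only and mixed genes were named, and of the general genes the 4 with the largest and the 4 with the smallest change by PMN and any with an adjusted p under 0.05. Of the 39 symbols, 38 matched a RefSeq gene of cattle by symbol or synonym. As cows are the replicates, p-values cover the spread between cows. Reads carry no molecular identifiers, so limits from counts cover counting error only.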

Additional observations from a re-analysis of the deposited data

Results flagged for a closer look

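Each of the following values was far from the other cows of its group, among 66 groups looked at, of which 5 were so marked, and chance marks about 1 in 20 groups. The mean log2(CPM + 1) of the motile-only genes was 1.90 in HHCYTO+PVD cow Clinical_1829, above the other 3 cows of its group. The mean of the general genes was 3.79 in HLHealthy cow Healthy_1570, below the other 4. DNAH7 stood at 1.84 on the log2(CPM + 1) scale (2.57 CPM) in HLPVD cow Clinical_2520, the lowest of its group. LRRC6 stood at 4.83 (27.4 CPM) in LHCYTO cow Sub-clinical_1183 and at 2.003 (3.01 CPM) in HHCYTO cow Sub-clinical_1944, each the highest of its group.

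In the 3 cows outside the study set, DNAH17 stood at 15.3 CPM in cow Sub-clinical_1378 and 12.3 CPM in cow Clinical_2188, above the highest healthy cow at 7.73 CPM, and at 6.28 CPM in cow Clinical_2672.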

How the results depend on the processing

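No paired analysis was possible because every cow belongs to a single group and cow numbers are not shared between groups. DESeq2 on the recovered reads called more genes than limma: 700 genes and 16 of the 39 cilia genes in PVD against healthy cows, 23 genes in CYTO against healthy, 875 and 16 in HLHealthy against LLHealthy, 128 and 1 in HHCYTO against HLHealthy, 39 in LHCYTO against LLHealthy, 2 in PVD against HLHealthy and 94 in the test of the PMN effect between outcomes. In that last test limma called 8 genes, 3 with a pseudocount of 0.1 CPM, 18 with TMM, 19 with RLE and edgeR 0. In HHCYTO against HLHealthy limma called 43, edgeR 14 and 1 fit over 27 cows 0, and that fit called 1377 genes and 12 of the 39 in HLHealthy against LLHealthy. With a pseudocount of 0.1 CPM the motile-only mean less the general mean moved to -2.99 in HLHealthy, -2.72 in HHCYTO and -2.90 in HLPVD. In PVD against healthy cows the motile-only median moved to -3.19 by edgeR and -3.16 by DESeq2. The general median in LHCYTO against LLHealthy moved to -0.37 by both tools.

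Leaving out each cow in turn gave 852 (without cow Healthy_2570) to 1884 genes (without cow Healthy_1890) called between the PMN classes and 12 to 16 of the 39, 0 to 4 genes in PVD against healthy, 0 to 2142 and 0 to 16 of the 39 in HLHealthy against LLHealthy, 2 (without cow Sub-clinical_2039) to 142 genes and 0 to 1 of the 39 (both highest without cow Healthy_1570) in HHCYTO against HLHealthy, 0 to 376 in LHCYTO against LLHealthy (without cow Healthy_1890) and 2 to 588 in the test of the PMN effect between outcomes (without cows Sub-clinical_2039 and Healthy_1890). The sign of IFT20 between PMN classes turned with TMM (-0.015), RLE (-0.0068), edgeR (-0.021) and DESeq2 (-0.011) and ran from -0.041 to 0.053 without single cows, and WDR34 turned to 0.27 within CYTO cows. TMM moved the median of all genes from -0.13 to 0.00065 in PVD against healthy, from 0.14 to -0.0050 in HLHealthy against LLHealthy, from 0.20 to -0.015 in LHCYTO against LLHealthy and from -0.25 to 0.043 in the test between outcomes. The cause of these changes was not tested. Levels of CCDC39 and DRC1 in high PMN cows rest on few reads, which limits how well their fold changes are known.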

Other observations

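In the 3 cows outside the study set, the mean log2(CPM + 1) of the motile-only genes was 1.51 in cow Sub-clinical_1378, 2.08 in cow Clinical_2188 and 1.30 in cow Clinical_2672, within or below the range of the high PMN cows. KIF3A, the other motor subunit of kinesin-2, WDR60, an intermediate chain of dynein-2, CFAP20, CFAP97 and DNAH1 were each below all 10 healthy cows in all 3. The share of all genes that lay so was not computed, so nothing is read from this. The median gene stood at 21.7 to 27.2 CPM in these 3 libraries. These cows entered no comparison other than the fits over all 30 labelled cows.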
